A study of Homo sapiens with 6 samples.

Results

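Cyclic AMP and cyclic GMP are made, broken down and read by a defined set of enzymes and binding proteins. From these gene families, 53 genes were examined among the 21301 genes of the count table. They were chosen by gene symbol alone, as protein-coding genes for adenylyl cyclases (ADCY), phosphodiesterases (PDE), subunits of protein kinase A (PRKACA, PRKACB and the PRKAR genes), cGMP-dependent kinases (PRKG), soluble guanylyl cyclase (GUCY1), RAP guanine nucleotide exchange factors 2 to 6 (RAPGEF) and numbered A-kinase anchoring proteins (AKAP). The cells were SH-SY5Y, a human neuroblastoma line used as a model of neurons. Either a control siRNA (siControl) or siPSF, directed at the RNA-binding protein PSF (gene SFPQ), was given at 10 nM for 72 h, and 3 poly(A) RNA libraries were sequenced per group. The study's methods describe biological triplicates and name 1 PSF siRNA (#2), so nothing here separates loss of PSF from other effects of that siRNA.

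Adenylyl cyclases turn ATP into cAMP when receptors act through stimulatory G proteins, and soluble guanylyl cyclase makes cGMP in answer to nitric oxide. Phosphodiesterases hydrolyse these messengers, with some forms specific for cAMP, some for cGMP and some acting on both. In neurons cAMP is read mainly by protein kinase A (PKA), whose regulatory subunits hold the catalytic subunits silent until cAMP binds, and by the exchange factors EPAC1 and EPAC2 (RAPGEF3 and RAPGEF4). A-kinase anchoring proteins tether PKA, often beside a phosphodiesterase, to particular places in the cell, and PKA in the nucleus activates the transcription factor CREB.

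The total count ranged from 119019293 to 132420931 in the siControl libraries and from 101540520 to 120627283 in the siPSF libraries. SFPQ stood at 372.4, 355.9 and 401.5 CPM (counts scaled to library size after TMM normalization) in siControl and at 209.1, 193.0 and 165.1 in siPSF, a log2 fold change of -0.99 ± 0.10 (SE, adjusted p = 9.51e-05, edgeR's quasi-likelihood test, p-values adjusted by Benjamini and Hochberg). Log2 fold changes below carry their SE in the same way, and FPKM, which scales a gene's fragments to its exon length and to the mapped reads, carries the SD. The noradrenergic neuroblastoma markers reported here were all present (PHOX2A, HAND2, GATA2, GATA3, DBH, TH and ISL1), although TH, the tyrosine hydroxylase gene, lay at only 0.741 ± 0.0945 CPM in siControl (SD, n = 3). Of these markers, DBH and TH were called lower and GATA3 higher. The 6 mesenchymal markers measured summed to 82.6 to 87.9 CPM in siControl and to 57.8 to 63.9 in siPSF, a difference carried by FN1, the only one of the 6 called. Their median log2 fold change was 0.37, with CD44, SNAI2, YAP1 and COL1A1 above 0 and WWTR1 below it. In bulk RNA, fewer cells of a type and less RNA per cell cannot be told apart, and the part of these marker shifts in the results below was not tested.

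All 53 genes passed the filter on low counts. A gene is called here when its adjusted p lay under 0.05 over all 19694 genes tested. In siPSF, 13 of the 53 were called lower and 2 higher, while 38 were not called. Over all genes tested 8.27% were called lower and 6.65% higher, and over protein-coding genes 8.58% and 6.72%. The share called lower among the 53 genes was 24.5%, and the share called higher was 3.77%. The 13 called lower include PDE6D, which has no hydrolytic activity, and RAPGEF5 and RAPGEF6, which are not the EPAC sensors. Their median log2 fold change was -0.20, against 0.012 for all protein-coding genes tested, and 33 of the 53 lay below 0. In 22 of the 53 genes every siPSF library was below every siControl library, against 17.8% of all genes tested. In 5 of the 53 every siPSF library was above, against 16.7% of all genes tested. The count called lower was 7 without siControl library 3 (5.14% of all genes) and 20 without siPSF library 3 (8.73% of all genes). The count called higher was 0 without siControl library 2 (2.87% of all genes) or 3 (3.68% of all genes).

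**Figure D1:**
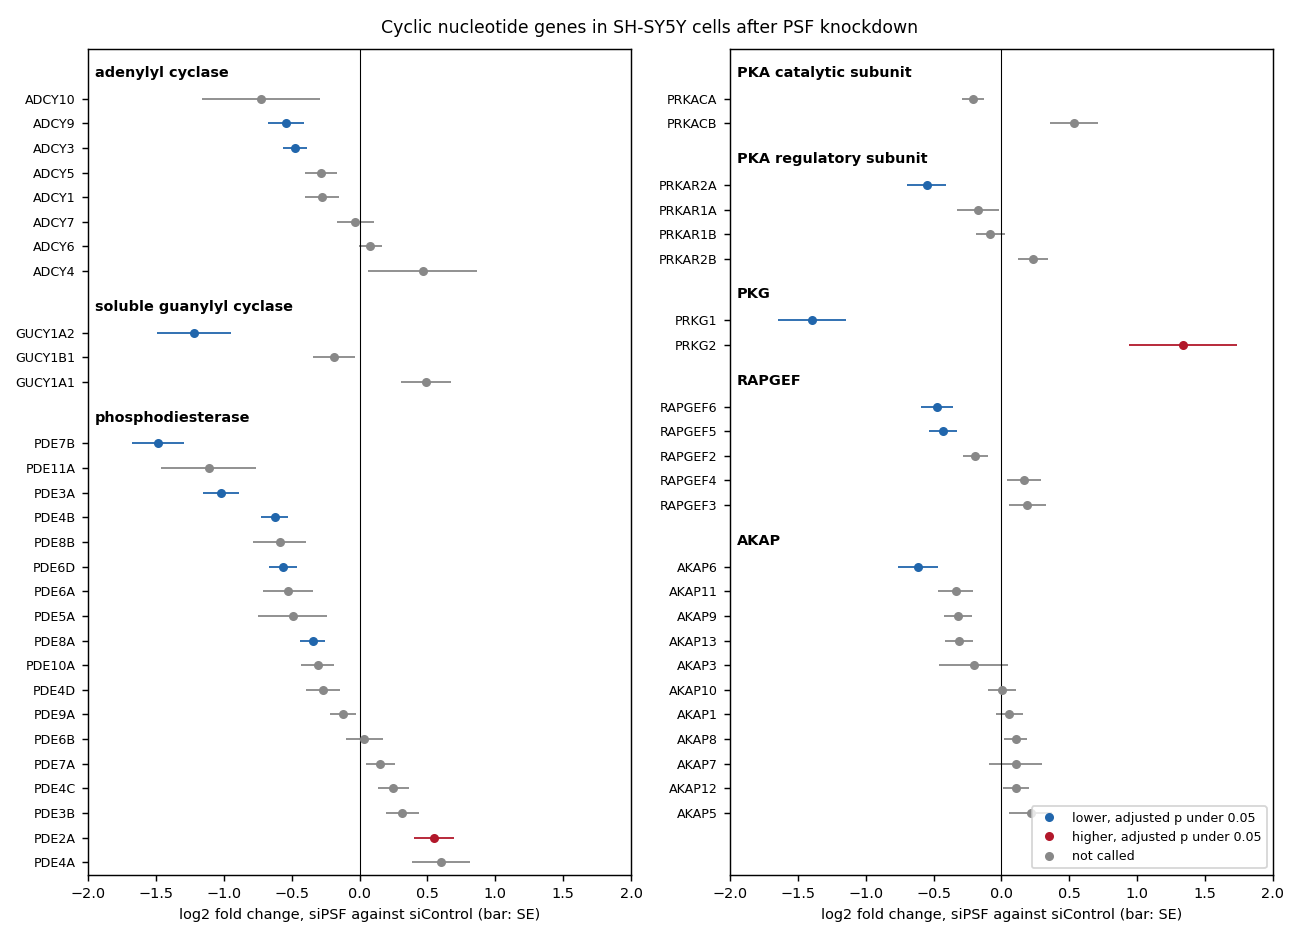
Log2 fold change of siPSF against siControl for each of the 53 genes, by family, with its standard error as a bar (3 libraries per group). Blue and red points are the 13 genes called lower and the 2 called higher, and PDE7B, PRKG1 and GUCY1A2 lie farthest left among the blue points.

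Of the 18 phosphodiesterases measured, PDE7B, PDE3A, PDE4B, PDE6D and PDE8A were called lower and PDE2A higher. These shares were 27.8% and 5.56%, beside 8.27% and 6.65% of all genes. PDE7B (gene ID 27115, chr6:135851701-136195574, plus strand, GRCh38.p14) encodes a cAMP-specific enzyme. Its level was 6.86, 5.40 and 6.27 CPM in siControl and 2.87, 1.69 and 2.05 CPM in siPSF. The groups did not overlap, and the level was 2.80-fold lower in siPSF (log2 fold change -1.48 ± 0.19, adjusted p = 0.000483, edgeR). PDE3A (gene ID 5139, chr12:20368537-20688583, plus strand) encodes an enzyme that hydrolyses cAMP and is inhibited by cGMP. It stood at 33.6, 36.9 and 48.4 CPM in siControl and at 20.2, 20.7 and 17.6 CPM in siPSF, with every siPSF library below every siControl library. The level in siPSF was 49.3% of that in siControl (log2 fold change -1.02 ± 0.13, adjusted p = 0.000486, edgeR).

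PDE4B (gene ID 5142, chr1:65792510-66374579, plus strand) belongs to the rolipram-sensitive cAMP-specific PDE4 group and is known in brain for limiting cAMP near receptors. Its level was 107.8, 110.7 and 126.4 CPM in siControl and 82.0, 75.2 and 66.3 CPM in siPSF. The groups were apart, at a log2 fold change of -0.63 ± 0.099 (adjusted p = 0.00151, edgeR). The other 3 PDE4 genes were not called. PDE4D, the longest of all 53 genes at 1553 kb, lay at -0.27 ± 0.13, PDE4C at 0.25 ± 0.11 and PDE4A at 0.60 ± 0.21 on the log2 scale. For PDE4A the siPSF libraries were themselves uneven, at 9.34, 10.4 and 5.16 CPM against 4.90 to 5.88 CPM in siControl.

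PDE6D (gene ID 5147, chr2:231732433-231781282, minus strand) is named after the photoreceptor enzyme it was found with, but encodes a chaperone of prenylated proteins and has no hydrolytic activity. It was measured at 34.3, 36.1 and 33.7 CPM in siControl and at 25.8, 24.3 and 20.3 CPM in siPSF, without overlap, and fell by 0.56 ± 0.11 on the log2 scale (adjusted p = 0.00408, edgeR). PDE8A (gene ID 5151, chr15:84980467-85139142, plus strand), a cAMP-specific enzyme of high affinity, had 34.4, 30.1 and 33.1 CPM in siControl and 26.9, 24.5 and 25.3 CPM in siPSF. Its groups did not overlap either, but the log2 difference was smaller, -0.35 ± 0.094 (adjusted p = 0.028, edgeR), and the call was lost without siControl library 1 or 3 and without siPSF library 1 or 2.

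PDE2A (gene ID 5138, chr11:72576141-72674422, minus strand), which hydrolyses both messengers and is stimulated by cGMP, went the other way. It stood at 5.78, 5.57 and 5.72 CPM in siControl and at 7.27, 7.42 and 10.3 CPM in siPSF, so siPSF library 3 was the highest. The log2 fold change was 0.55 ± 0.15 (adjusted p = 0.0269, edgeR), falling to 0.37 and not called without that library. Without any 1 of the 3 siControl libraries the gene was not called either.

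By substrate, 3 of the 8 cAMP-specific enzymes were called lower and none higher, beside 8.27% and 6.65% of all genes. None of the 4 cGMP-specific enzymes was called by edgeR (PDE6A had an unadjusted p under 0.05 and was called by DESeq2). Of the 5 enzymes acting on both, 1 was called lower and 1 higher. The median log2 fold change was -0.308 for cAMP-specific, -0.308 for cGMP-specific and -0.310 for enzymes acting on both. These medians of few genes lay close together, and a difference by substrate was not tested. The phosphodiesterase nearest to a call was PDE11A, which acts on both messengers. Its 0.641, 1.15 and 1.43 CPM in siControl and 0.581, 0.625 and 0.274 CPM in siPSF did not overlap but spread widely within siControl (log2 fold change -1.11 ± 0.35, adjusted p = 0.0504, edgeR). PDE8B followed at -0.59 ± 0.19 (adjusted p = 0.0585, edgeR), also without overlap. The cGMP-specific enzymes PDE6A, PDE5A, PDE9A and PDE6B had log2 fold changes from -0.53 to 0.035. The remaining phosphodiesterases not called were PDE10A at -0.31, PDE7A at 0.15 and PDE3B at 0.32, the last with every siPSF library above siControl.

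The promoters of the 2 called phosphodiesterase genes that hold letters of the cAMP response element, the site that CREB binds, are shown. PDE7B encodes an enzyme that hydrolyses cAMP, whereas the PDE6D product has no hydrolytic activity. The 250 bases before the start in RefSeq (GRCh38.p14) were searched on both strands for the full palindrome TGACGTCA and for its core TGACG, which lies inside it. Capitals mark the match. PDE7B (chr6:135851451-135851700, plus strand) holds the full element 155 bases before the start, and PDE6D (chr2:231781283-231781532, printed on its own minus strand) holds the core 125 bases before it.
PDE7B: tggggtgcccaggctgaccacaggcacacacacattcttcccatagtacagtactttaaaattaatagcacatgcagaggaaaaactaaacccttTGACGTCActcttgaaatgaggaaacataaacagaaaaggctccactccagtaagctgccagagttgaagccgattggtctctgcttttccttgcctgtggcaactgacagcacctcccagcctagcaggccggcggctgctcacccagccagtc
PDE6D: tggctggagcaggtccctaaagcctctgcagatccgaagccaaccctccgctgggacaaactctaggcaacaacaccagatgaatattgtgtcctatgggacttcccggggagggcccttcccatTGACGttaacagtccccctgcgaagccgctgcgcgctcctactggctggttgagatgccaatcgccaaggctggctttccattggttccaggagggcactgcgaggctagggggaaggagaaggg
Promoters were given for 47 of the 53 genes. The full element was in 1 of them (2.13%), against 2.84% of the 11852 promoters of protein-coding genes in the table, and the core was in 12 (25.5%), against 29.2%. Both shares were close to those of other promoters. Of the 12, 4 were called lower (PDE7B, PDE6D, RAPGEF5 and RAPGEF6) and the other 8 were not called. The start used was not always the outer end of the gene. For RAPGEF5 the stretch searched (chr7:22194811-22195060) lies inside the gene, and the same holds for others, such as PDE3A, PDE10A, ADCY7 and PRKG1. A match describes the letters only, and binding was not measured.

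**Figure D2:**
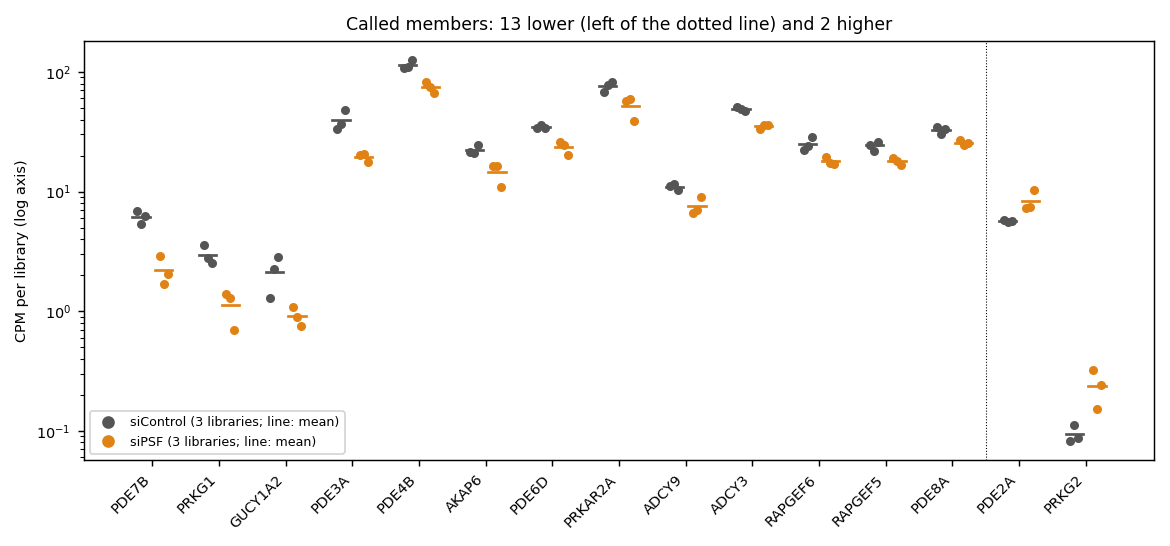
Level of the 15 called genes in each library, in CPM on a log axis, with grey points for the 3 siControl libraries, orange points for the 3 siPSF libraries and lines for the group means. In each of the 15 genes the groups do not overlap, over levels that run from 0.0822 CPM (PRKG2) to 126.4 CPM (PDE4B).

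Among the enzymes that make cAMP, 2 of the 8 adenylyl cyclases were called lower and none higher, beside 8.27% and 6.65% of all genes. ADCY3 (gene ID 109, chr2:24819169-24920237, minus strand), the cyclase of olfactory and primary cilia, was measured at 50.5, 49.3 and 47.1 CPM in siControl and at 33.6, 36.1 and 35.9 CPM in siPSF. Replicates were tight and the groups apart, with a log2 fold change of -0.48 ± 0.085 (adjusted p = 0.00324, edgeR). Its exons share 23.1% of their bases with CENPO, a centromere protein gene on the opposite strand. The sources used here do not say whether counting used strand, and CENPO itself had a log2 fold change of -0.69 ± 0.087, so the ADCY3 value is uncertain. ADCY9 (gene ID 115, chr16:3953387-4116442, minus strand), a widely expressed cyclase, stood at 11.1, 11.5 and 10.4 CPM in siControl and at 6.59, 7.05 and 9.02 CPM in siPSF. Its groups did not overlap (log2 fold change -0.54 ± 0.13, adjusted p = 0.0183, edgeR), and the call was lost without siControl library 2 and without siPSF library 1 or 2.

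The cyclases with the highest levels per exon length were not called. ADCY6, a calcium-inhibited form, had 18.5 ± 0.655 FPKM in siControl and 18.6 ± 1.54 FPKM in siPSF (SD, n = 3), and ADCY1, the calmodulin-stimulated neuronal form, had 13.9 ± 1.80 and 11.1 ± 1.90 FPKM. On the log2 scale the counts gave 0.080 ± 0.088 for ADCY6 and -0.28 ± 0.12 for ADCY1. The calcium-inhibited ADCY5 lay at -0.28 ± 0.12 with groups apart. ADCY7 lay at -0.033 ± 0.14, and 41.8% of its exon bases overlap BRD7 on the opposite strand. ADCY10, the bicarbonate-sensing soluble cyclase, and ADCY4 were barely detected, with 8 to 21 and 10 to 16 reads per library, and their log2 fold changes had standard errors of 0.43 and 0.40. The summed FPKM of the 8 cyclases did not overlap between groups, and the siPSF mean was 0.856 times the siControl mean.

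Soluble guanylyl cyclase is a dimer of an alpha and a beta subunit. GUCY1A2 (gene ID 2977, chr11:106674019-107018476, minus strand), an alpha subunit, was low and was called lower. It stood at 1.30, 2.24 and 2.84 CPM in siControl and at 1.09, 0.900 and 0.751 CPM in siPSF, where the lowest siControl library came near the highest siPSF library. The log2 fold change was -1.22 ± 0.27 (adjusted p = 0.0112, edgeR), and the call was lost without siControl library 2 or 3. GUCY1A1, the other alpha subunit, was not called, although its 3.24, 2.96 and 4.42 CPM in siPSF all lay above the 2.69, 2.16 and 2.73 CPM in siControl (log2 fold change 0.49 ± 0.18, adjusted p = 0.0966, edgeR). The beta subunit GUCY1B1 had the highest level of the 3, 1.10 ± 0.218 FPKM in siControl and 0.901 ± 0.0316 FPKM in siPSF.

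PKA subunits held the 3 highest levels per exon length of the 53 genes (PRKAR1A, PRKAR1B and PRKACA), and 5 of the 6 subunits were not called. PRKAR1A, the ubiquitous type I regulatory subunit, had 59.3 ± 7.87 FPKM in siControl and 48.7 ± 12.7 FPKM in siPSF, and PRKAR1B, its brain-enriched relative, had 48.5 ± 5.28 and 43.3 ± 4.47 FPKM. The difference for PRKAR1A came from siPSF library 3, at 170.3 CPM against 285.4 and 249.8 CPM in the other siPSF libraries. Its log2 fold change was -0.17 ± 0.15 with all libraries and 0.017 without that one. PRKAR1B (log2 fold change -0.082 ± 0.11) was also within the spread of its replicates. PRKAR2A (gene ID 5576, chr3:48744591-48847874, minus strand), a type II regulatory subunit that binds anchoring proteins, was the only PKA subunit called. Its level was 67.3, 78.1 and 83.1 CPM in siControl and 57.5, 59.5 and 39.0 CPM in siPSF, again lowest in siPSF library 3. It fell by 0.55 ± 0.14 on the log2 scale (adjusted p = 0.0233, edgeR) and was not called without siControl library 2 or 3. PRKAR2B, the neuronal type II subunit, lay at 0.23 ± 0.11 with overlapping groups.

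Neither of the 2 catalytic subunits was called by edgeR, although both had an unadjusted p under 0.05, on opposite sides of 0. PRKACA had 91.2, 97.3 and 87.3 CPM in siControl and 80.1, 82.9 and 75.5 CPM in siPSF, a small difference without overlap (log2 fold change -0.21 ± 0.082, adjusted p = 0.108, edgeR). PRKACB had 54.0, 29.2 and 34.9 CPM in siControl and 61.2, 51.5 and 58.0 CPM in siPSF. Its siControl library 1 lay inside the siPSF range, and the log2 fold change was 0.53 ± 0.18 (adjusted p = 0.0638, edgeR). DESeq2 called PRKACB higher, and PRKACA was called lower with library totals (adjusted p = 0.0277, edgeR) and with limma on FPKM as deposited and rescaled (adjusted p = 0.0367 and 0.0111).

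The 2 cGMP-dependent kinases moved in opposite directions at low levels. PRKG1 (gene ID 5592, chr10:50990888-52298350, plus strand) encodes the soluble kinase and is among the longest genes examined, at 1307 kb, of which 99.5% is intron. It was measured at 3.58, 2.79 and 2.53 CPM in siControl and at 1.40, 1.28 and 0.690 CPM in siPSF. Without overlap, the level was 2.63-fold lower in siPSF (log2 fold change -1.40 ± 0.25, adjusted p = 0.00313, edgeR). PRKG2 (gene ID 5593, chr4:81087370-81217836, minus strand), the membrane-bound kinase, had 10, 15 and 11 reads in siControl and 38, 16 and 24 in siPSF. The siControl library with 15 reads and the siPSF library with 16 were almost level before scaling, and its log2 fold change was 1.33 ± 0.40 (adjusted p = 0.0412, edgeR). Leaving out 1 library ended this call in 5 of 6 cases.

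**Figure D3:**
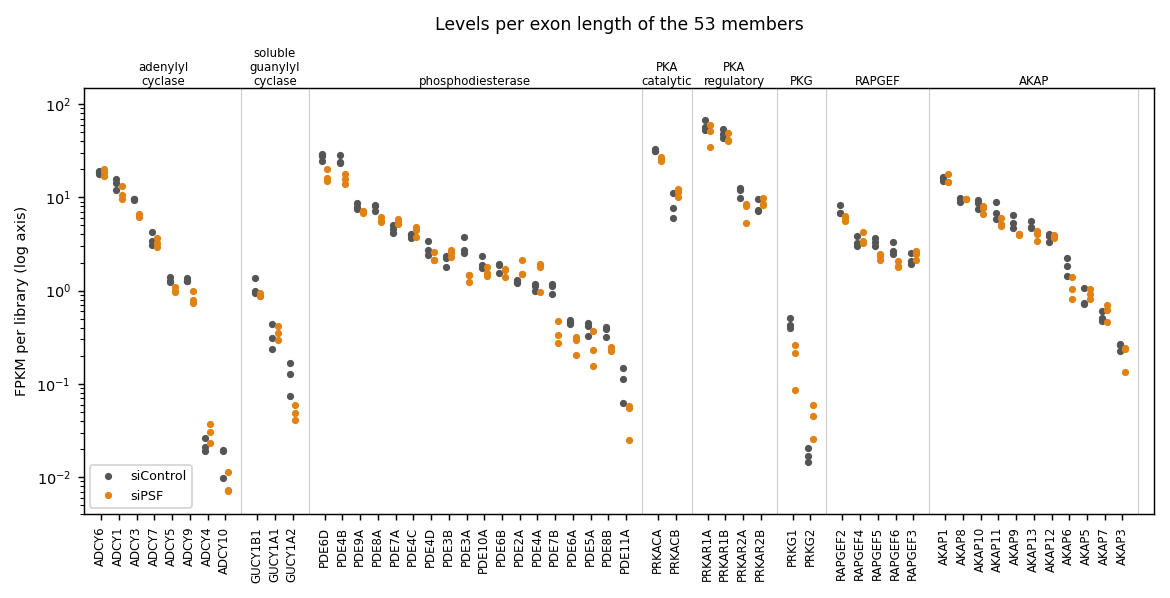
FPKM in each library on a log axis for the 53 genes, ordered within each family by mean level, with siControl in grey and siPSF in orange. PRKAR1A has the highest mean (54.0 FPKM) and ADCY10 the lowest (0.0123 FPKM).

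Of the exchange factors for RAP GTPases, RAPGEF5 and RAPGEF6 were called lower and the other 3 were not called. RAPGEF5 (gene ID 9771, chr7:22118236-22357154, minus strand), an exchange factor for RAP and RAS-related GTPases, was measured at 24.7, 22.0 and 26.1 CPM in siControl and at 19.1, 18.1 and 16.7 CPM in siPSF (log2 fold change -0.43 ± 0.10, adjusted p = 0.0159, edgeR). RAPGEF6 (gene ID 51735, chr5:131423921-131635229, minus strand), a PDZ-domain exchange factor, had 22.2, 23.9 and 28.6 CPM in siControl and 19.4, 17.3 and 17.0 CPM in siPSF (log2 fold change -0.47 ± 0.11, adjusted p = 0.0163, edgeR). In both the groups were apart, and both calls were lost without siControl library 3. The cAMP sensors themselves had values above 0 that were not called, RAPGEF3 (EPAC1) at 0.19 ± 0.14 and RAPGEF4 (EPAC2) at 0.17 ± 0.13. RAPGEF2, the relative of RAPGEF6, had the highest level of the family, with 7.24 ± 0.822 FPKM in siControl and 5.94 ± 0.361 FPKM in siPSF, and a log2 fold change of -0.19 ± 0.092. GENCODE places unnamed protein-coding models on the same strand over 54.4% of the exon bases of RAPGEF6, 51.6% of PDE8B and 73.8% of PDE4C, and how counting split such reads is not stated.
The 250 bases before the RAPGEF6 start (chr5:131635230-131635479, printed on the minus strand) hold the core of the cAMP response element, here in reverse complement, 86 bases before the start.
RAPGEF6: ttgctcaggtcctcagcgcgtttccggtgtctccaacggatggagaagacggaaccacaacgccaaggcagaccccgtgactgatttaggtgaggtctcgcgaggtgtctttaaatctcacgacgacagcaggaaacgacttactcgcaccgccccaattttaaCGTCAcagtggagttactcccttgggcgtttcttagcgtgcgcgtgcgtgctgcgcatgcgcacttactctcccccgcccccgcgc

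Of the 11 anchoring proteins 9.09% were called lower, beside 8.27% of all genes. AKAP6 (gene ID 9472, chr14:32329298-32837684, plus strand), which holds PKA at the nuclear envelope of muscle cells and neurons, was the only 1 called. It stood at 21.4, 21.1 and 24.6 CPM in siControl and at 16.4, 16.4 and 11.0 CPM in siPSF, without overlap, and fell by 0.62 ± 0.15 on the log2 scale (adjusted p = 0.015, edgeR). The call was lost without siControl library 3. AKAP9, the Golgi and centrosome anchor, and AKAP13, a guanine nucleotide exchange factor, came next without overlap at -0.32 ± 0.10 and -0.31 ± 0.10 (adjusted p = 0.0555 and 0.0646, edgeR), and AKAP11 followed at -0.34 ± 0.13 with overlapping groups. The mitochondrial anchor AKAP1 had the highest level of the family, 15.9 ± 0.849 FPKM in siControl and 15.6 ± 1.81 FPKM in siPSF. The remaining 6, AKAP3, AKAP5, AKAP7, AKAP8, AKAP10 and AKAP12, lay between -0.20 and 0.21 on the log2 scale, none called. The median over the 11 anchoring proteins was 0.0014, against -0.33 over the 18 phosphodiesterases and -0.28 over the 8 adenylyl cyclases.

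Summed over all 53 genes, the deposited FPKM was 385.0, 375.9 and 404.8 in siControl and 339.9, 323.9 and 314.2 in siPSF, so that no siPSF library reached the lowest siControl library. The siPSF mean was 0.839 times the siControl mean for all 53 genes. By family the ratio was 0.742 for phosphodiesterases, 0.856 for RAP exchange factors, 0.867 for PKA subunits and 0.895 for anchoring proteins, the last with overlapping groups. PDE6D, which has no hydrolytic activity, made up 27.3% of the phosphodiesterase sum over the 6 libraries, so 0.742 does not describe the enzymes alone. For these the ratio was 0.763 for cAMP-specific, 0.854 for cGMP-specific and 0.855 for those acting on both, the last with overlapping groups. Among phosphodiesterases the cAMP-specific enzymes went from 46.8 ± 3.53 to 35.7 ± 3.06 FPKM. PDE4B alone made up 49.6% of that sum over the 6 libraries and PDE8A 16.4%. In 16 of the 53 genes, counts and FPKM of a library departed by over 5% from 1 fixed exon length, up to 28.0% for GUCY1A1, so FPKM is not a simple rescaling of the counts.

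Several genes called lower had a close relative that was not. In each of the 8 subfamilies with exactly 2 measured genes, the shorter gene was divided by the longer within each library, a comparison set up after the values were known and given without a test. The PDE7A to PDE7B ratio of FPKM was 4.30, 4.49 and 4.10 in siControl and 10.9, 19.8 and 17.4 in siPSF. The PDE3B to PDE3A ratio was 0.917, 0.651 and 0.593 in siControl and 1.71, 1.55 and 2.17 in siPSF, so PDE3B was the lower of the pair in siControl and the higher in siPSF. For GUCY1A1 over GUCY1A2 the ratio was 4.24, 1.87 and 2.62 in siControl and 5.93, 6.12 and 10.4 in siPSF. The direction was the reverse for PKA. The PRKAR2A to PRKAR2B ratio was 1.34, 1.66 and 1.33 in siControl and 0.828, 1.01 and 0.635 in siPSF, and the PRKACA to PRKACB ratio was 2.81, 5.50 and 4.14 in siControl and 2.12, 2.67 and 2.19 in siPSF. The PRKG2 to PRKG1 ratio was also apart between groups, whereas PDE8A over PDE8B and PRKAR1A over PRKAR1B overlapped. All pairs whose ratio was apart, except PRKACA over PRKACB, hold a gene already called above, so they largely restate those calls.

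**Figure D4:**
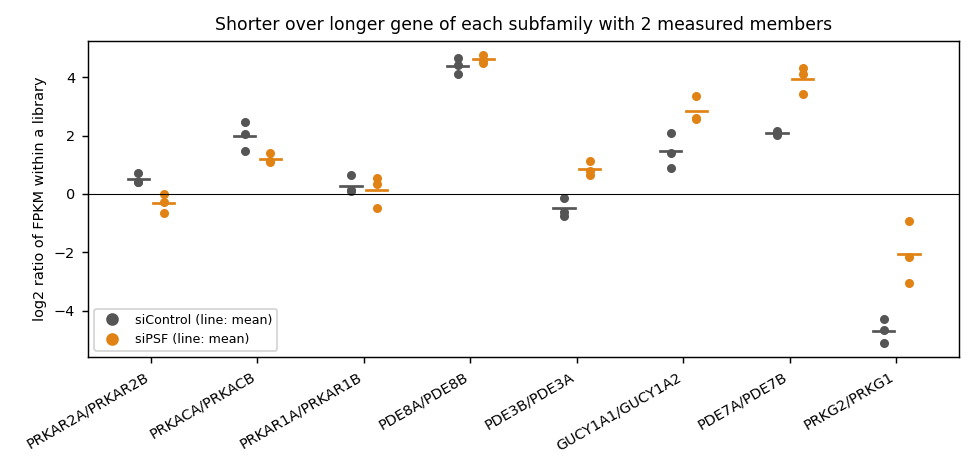
Log2 ratio of FPKM of the shorter to the longer gene within each library, for the 8 subfamilies with 2 measured genes, with siControl in grey, siPSF in orange and lines for the group means. The ratio is lower in siPSF for PRKAR2A/PRKAR2B and PRKACA/PRKACB and higher for PDE3B/PDE3A, GUCY1A1/GUCY1A2, PDE7A/PDE7B and PRKG2/PRKG1, and the groups overlap in the other pairs.

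The genes of this pathway are long. Their median length was 130.5 kb, against 30.3 kb for the 14418 protein-coding genes tested with a RefSeq length. Of the 13 called lower, 12 spanned at least 100 kb, and the exception was PDE6D at 48.9 kb. Of the 34 spanning 100 kb or more, 35.3% passed the test with a lower level, beside 25.1% of protein-coding genes of that length. Among the 19 shorter genes, 1 was called lower (5.26%), beside 4.64%. Most of the 53 genes thus fall in the length range where calls of a lower level were also more frequent over all protein-coding genes.

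With siControl library 3 left out, 17.6% of the long genes were called lower beside 15.5% of long protein-coding genes, and with siPSF library 3 left out, 52.9% beside 25.9%. In the bin from 200 to 400 kb, 5 of 10 were called lower (29.5% of protein-coding genes), and from 400 kb up, 3 of 6 (53.8% of protein-coding genes). Across the 53 genes the Spearman correlation of length with log2 fold change was -0.51, and across the 14418 protein-coding genes it was -0.30. These are correlations across genes measured in the same 6 libraries and are given as descriptions. Length did not order every gene, since PDE4D at 1553 kb and PDE10A at 660.8 kb were not called. In all 13 genes called lower the longest intron was among introns 1 to 4, as it was in 34 of the other 40. Its median length was 104.1 kb in the 13 and 29.4 kb in the 40.

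**Figure D5:**
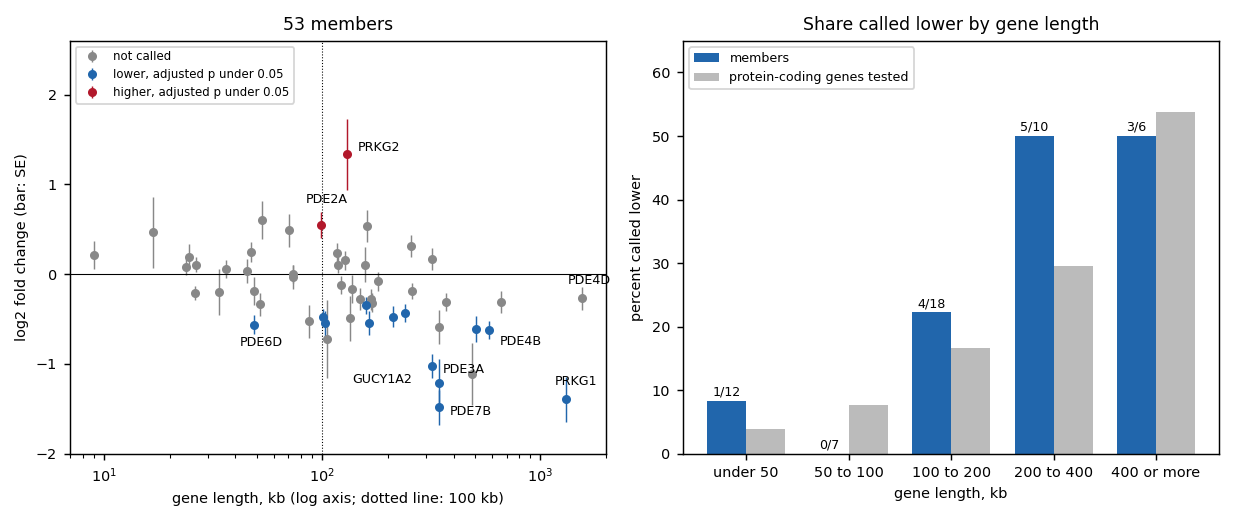
Left, log2 fold change with its standard error against gene length on a log axis for the 53 genes. Right, percent called lower by length bin for these genes (blue, with the number called of the number in the bin) and for all protein-coding genes tested (grey), which rises from 3.86% under 50 kb to 53.8% at 400 kb or more.

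Around these genes, 80 listed genes of the same pathway were in the table and tested, and 10 were called lower and 4 higher (median log2 fold change -0.018), beside the 8.27% and 6.65% of all genes. The count called lower was 4 without siControl library 2 (4.66% of all genes) and 5 without siControl library 3 (5.14% of all genes). The count called higher was 1 or 2 whichever library was left out (2.87% to 7.07% of all genes). Upstream, 1 of 7 G protein alpha subunits was called, GNAO1, the Go subunit of neurons, at -0.39 ± 0.12 on the log2 scale (adjusted p = 0.0409, edgeR). GNAS, the stimulatory subunit, lay at 0.073 ± 0.091. Of 12 receptors that couple to cAMP, ADCYAP1R1 (the PACAP receptor) and ADORA2B (an adenosine receptor) were called higher, at 0.34 ± 0.10 and 0.72 ± 0.22, and GLP1R lower, at -0.66 ± 0.21 (adjusted p = 0.0391, 0.0426 and 0.0487, edgeR).

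Among 14 inhibitors and further readers of cAMP, PKIG, a PKA inhibitor, was called lower at -0.31 ± 0.089 and POPDC2, a cAMP-binding membrane protein, at -0.78 ± 0.15 (adjusted p = 0.0345 and 0.00436, edgeR). POPDC2 stood at 55.1, 61.8 and 52.6 CPM in siControl and at 35.1, 39.3 and 24.4 CPM in siPSF, with no overlap. CREB1, the transcription factor at the end of the pathway, was not called (-0.22 ± 0.11), while 2 of its 5 coactivators measured were called lower. CREBBP had 179.5, 184.8 and 195.4 CPM in siControl and 135.4, 145.3 and 143.2 CPM in siPSF (log2 fold change -0.40 ± 0.079, adjusted p = 0.00562, edgeR), and EP300 lay at -0.37 ± 0.10 (adjusted p = 0.0283, edgeR). They were the only 2 called of the 8 genes of the CREB list, and the coactivators CRTC1, CRTC2 and CRTC3 lay at -0.16, 0.14 and -0.091.

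Of 13 genes known to answer to cAMP, VGF and NR4A3 were called lower and none higher, beside 8.27% and 6.65% of all genes. VGF, a neuropeptide precursor, had 1285, 1192 and 1001 CPM in siControl and 869.0, 903.7 and 685.6 CPM in siPSF (log2 fold change -0.50 ± 0.12, adjusted p = 0.0166, edgeR), and NR4A3 lay at -0.78 ± 0.22 (adjusted p = 0.035, edgeR). The other 11 were not called, and lay between EGR1 at -0.53 ± 0.21 and FOSB at 0.39 ± 0.34, both early genes, on the log2 scale. On the cGMP side, 1 of 11 further genes was called. NOS1, the neuronal nitric oxide synthase, was measured at 4.68, 5.18 and 5.72 CPM in siControl and at 2.59, 3.30 and 3.14 CPM in siPSF (log2 fold change -0.79 ± 0.15, adjusted p = 0.00477, edgeR).

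None of the 4 PKA substrates that inhibit phosphatases was called by edgeR, DESeq2 or limma (which tested 2 of the 4), and 1 of them, ENSA, had an unadjusted p under 0.05. Among other anchoring or phosphodiesterase-binding proteins, ARFGEF2 was called lower at -0.50 ± 0.12 and PALM2AKAP2 higher at 0.78 ± 0.22 (adjusted p = 0.0175 and 0.0345, edgeR).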

How the data were processed

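SH-SY5Y cells were sequenced in 6 poly(A) RNA libraries (3 siControl, 3 siPSF), grouped by the treatment in the sample labels. The authors deposited whole-number read counts and FPKM per gene. The study's methods name Bowtie 2, TopHat, the hg38 genome, RefSeq transcripts and RPKM, whereas the submitters' processing notes name Trimmomatic, HISAT2 2.1.0, StringTie 2.1.3b and GRCh38, and the labels name a stranded kit. The sources thus differ, and if StringTie made the counts they are rounded estimates. The smallest count in the table was 1.

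Deposited counts were tested in edgeR 4.0.16 (R 4.3.3) after filterByExpr and TMM scaling, with glmQLFit, glmQLFTest and Benjamini-Hochberg adjustment over 19694 genes, and a gene was called at an adjusted p under 0.05. The biological coefficient of variation was 12.6%. The script was tested on simulated counts. Deposited FPKM, which carries no TMM scaling, served to compare levels between genes. The family sums and pair ratios, compared between groups without a test, also rest on it. As an alternative it was used in limma 3.58.1, on log2(FPKM + 0.5) for genes with a mean FPKM of at least 0.5. Other alternatives were leaving out each library, a replicate block, DESeq2 1.42.0 size factors and Wald test (no adjusted p for 1652 genes), library totals, no filter, and other limits on p and length. Gene positions, lengths and promoters came from RefSeq (GRCh38.p14) and exon overlaps from GENCODE.

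Named genes were all called genes, the gene with the highest mean FPKM in each family, the 3 not called with the smallest adjusted p, and up to 4 called genes per pathway list, and other pathway genes were named after their values were seen. The genes examined and all lists were chosen with earlier results of these data known. Replicates differed by more than sampling noise (chi-square per degree of freedom of at least 22.4), so each counted as 1 sample. Library depth makes counting error small for all but the genes with few reads. Genes of the families that are absent from the table, such as ADCY2, ADCY8 and the PDE1 genes, were not analysed here. Some genes of the marker and pathway lists are not reported here.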

Additional observations from a re-analysis of the deposited data

How the results depend on the processing

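All 15 called genes kept their direction under every alternative that gave a value. Of the 15, 6 kept their call in every alternative that tested them, including the 6 fits that each left out 1 library. These were ADCY3, PDE3A, PDE4B, PDE6D and PDE7B (13 alternatives each) and PRKG1 (11, without the limma fits). Without 1 library, 1500 to 3140 of all genes tested were called (2938 with all libraries), 7 to 20 of the 53 genes were called lower (lowest without siControl library 3, highest without siPSF library 3) and 0 to 2 higher, 4 to 9 pathway genes were called lower and 1 to 2 higher, the median of the 53 ran from -0.249 to -0.165, and the share of long genes called lower from 17.6% to 52.9%. AKAP1 then ran from -0.056 to 0.12 and PRKAR1A from -0.33 to 0.017 on the log2 scale. With library totals in place of TMM, 18 of the 53 were called lower and 0 higher (13 and 2 in the report), 0 pathway genes were called higher, the median was -0.283 and AKAP1 lay at -0.022. Without the filter on low counts 1 pathway gene was called higher. Limma on FPKM tested 42 of the 53 genes. Its floor of 0.5 FPKM left out the called genes PRKG2 (mean 0.0302 FPKM), PRKG1 (0.315) and GUCY1A2 (0.0860). The pathway genes ADORA2B (0.488) and PALM2AKAP2 (0.467) were also below this floor. PRKG2, ADORA2B and PALM2AKAP2, called higher in the report, could thus not be called by limma. Of the genes it tested, 0 of the 42 and 0 pathway genes were called higher, and AKAP1 lay at -0.032. After FPKM were rescaled to 1 sum per library, the median over all genes limma tested moved to -0.16. The counts called higher were again 0 and 0. The median of the 42 genes tested was -0.308 (-0.147 relative to all genes tested). Limma tested 27 of the 34 long genes, and 55.6% of the 27 were called lower. ADCY6 lay at -0.11 and AKAP1 at -0.14. The ratios of summed FPKM became 0.790 for adenylyl cyclases, 0.789 for RAP exchange factors and 0.825 for anchoring proteins. At an adjusted p under 0.01, 6 were called lower and 0 higher, and under 0.10, 5 were called higher.

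Same-numbered libraries of the 2 groups did not all deviate together (correlations of -0.016, 0.25 and 0.10), so the numbers are not taken as pairs. With a replicate block, 17 of the 53 were called lower and 2 higher, and 3029 of all genes were called. The cause of these shifts was not tested. Depth limits mainly ADCY4, ADCY10 and PRKG2.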
